A study of Mus musculus with 32 samples.

Results

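The 32 genes described here encode enzymes that place or remove acetyl groups on histones or other substrates, and BET proteins, which bind acetylated lysines. They are 11 histone deacetylases of the zinc-dependent kind, 7 sirtuins, 11 acetyltransferases including the nuclear receptor coactivators, and 3 BET proteins. *Kat2a*, the deleted gene, and its paralog *Kat2b* are not among them. The genes were taken from a list of names, and all 32 were found among the 21938 protein-coding genes of the GENCODE M21 annotation used here. No measured value enters the rule for membership, and start sites and gene bodies come from the annotation.

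H3K4me3, H3K9ac, H3K27ac and H3K4me1 were profiled by ChIP-seq in bone marrow of terminal primary leukemias driven by *MLL-AF9*. All donor mice were homozygous for the *Kat2a* Flox allele and received pIpC; WT donors were *Mx1-Cre* -/- and KO donors were *Mx1-Cre* +/-. *Mx1-Cre* expresses the recombinase from an interferon-responsive promoter, and the excised allele still gives a transcript that lacks the acetyltransferase domain. In both genotypes, lineage-depleted marrow cells were transduced with a retrovirus carrying *MLL-AF9* and transplanted into irradiated recipients. The WT pool held marrow of 5 animals and the KO pool that of 4. Per the study's methods, marrow for transduction came from donors 6 to 10 weeks old. The 2 replicates of each mark and genotype were separate chromatin preparations from the same pool, so the spread between them, and any p-value that rests on it, does not include variation between leukemias. In bulk marrow, a mark in fewer cells and less of the mark per cell cannot be told apart.

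Histone acetyltransferases (writers) neutralize the charge of lysines in histone tails, deacetylases (erasers) restore it, and bromodomain proteins (readers) recruit the transcription machinery to acetylated chromatin. H3K4me3 marks active or poised promoters, H3K9ac and H3K27ac mark active promoters and enhancers, and H3K4me1 marks enhancers and the flanks of promoters. Members of all 3 groups have been studied as regulators or drug targets in leukemia, among them the deacetylases, p300 and CBP, and the BET proteins.

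Each peak list gave a position and the authors' fold enrichment over input at the summit, but no read counts. Sequencing depth is therefore unknown, and a gene without a listed peak is not shown to lack the mark. A promoter peak here overlapped the window from 1 kb upstream to 500 bp downstream of any annotated start site of the gene by at least 1 bp. A mark was called in a genotype when both replicates had a promoter peak for H3K4me3 and H3K9ac, and when replicate 2 had one for H3K27ac and H3K4me1. In replicate 1 of the latter marks at most 0.05% of the listed peaks had a q-value of 0.05 or less, against 87.6% and 92.4% for H3K27ac and 34.3% and 83.6% for H3K4me1 in replicate 2 (WT and KO). Replicate 1 is therefore described apart. The cells per condition were 500000 for H3K27ac and H3K4me1, against 5000000 for H3K4me3 and H3K9ac. The part of cell number in differences between marks was not tested. Where a level is compared between genes, the percentile of its strongest promoter peak among all genes with a promoter peak in the same library is used. Libraries without a peak are left out of the means and medians of these percentiles.

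The start sites of these genes differed in sequence and in marks, and 7 sequences that show the range are printed first. They are the 250 bases upstream of RefSeq start sites (GRCm38.p6, the mm10 coordinates), 5′ to 3′ on the strand of the gene, with every CpG in capitals. CpG-dense promoters are those that usually carry H3K4me3. Shown are the densest promoter among the entries free of annotated exons, the internal start sites of *Hdac4*, *Hdac7* and *Kat6b* that carried the marks, the outermost start sites of *Hdac7* and *Hdac9* that did not, and a *Kat8* start site that was marked although poor in CpG.
Ncoa1 (chr12:4477183-4477432, minus strand): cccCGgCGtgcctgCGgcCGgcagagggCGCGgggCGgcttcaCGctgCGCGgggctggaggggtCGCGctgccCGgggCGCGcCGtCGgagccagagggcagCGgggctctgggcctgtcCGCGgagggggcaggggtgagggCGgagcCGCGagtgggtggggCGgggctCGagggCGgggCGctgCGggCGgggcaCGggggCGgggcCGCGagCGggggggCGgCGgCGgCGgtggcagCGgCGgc
Hdac4, internal start (chr1:92180342-92180591, minus strand): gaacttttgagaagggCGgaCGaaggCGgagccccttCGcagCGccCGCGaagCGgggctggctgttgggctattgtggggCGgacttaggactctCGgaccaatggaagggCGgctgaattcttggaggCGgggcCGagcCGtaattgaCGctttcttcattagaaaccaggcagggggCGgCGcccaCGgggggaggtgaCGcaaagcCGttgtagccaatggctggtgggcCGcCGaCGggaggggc
Hdac7, internal start (chr15:97831768-97832017, minus strand): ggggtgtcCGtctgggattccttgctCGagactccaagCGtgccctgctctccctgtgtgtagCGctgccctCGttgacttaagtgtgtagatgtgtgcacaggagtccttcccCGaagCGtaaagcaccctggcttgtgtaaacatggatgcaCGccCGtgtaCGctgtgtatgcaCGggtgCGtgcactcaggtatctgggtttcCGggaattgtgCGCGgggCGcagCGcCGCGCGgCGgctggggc
Kat6b, internal start (chr14:21499520-21499769, plus strand): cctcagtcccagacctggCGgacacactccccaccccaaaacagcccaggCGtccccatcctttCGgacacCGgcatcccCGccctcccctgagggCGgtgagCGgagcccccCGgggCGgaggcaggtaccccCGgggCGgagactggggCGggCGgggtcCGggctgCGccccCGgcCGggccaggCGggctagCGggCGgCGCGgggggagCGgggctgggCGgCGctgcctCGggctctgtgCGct
Hdac7, outermost start (chr15:97844503-97844752, minus strand): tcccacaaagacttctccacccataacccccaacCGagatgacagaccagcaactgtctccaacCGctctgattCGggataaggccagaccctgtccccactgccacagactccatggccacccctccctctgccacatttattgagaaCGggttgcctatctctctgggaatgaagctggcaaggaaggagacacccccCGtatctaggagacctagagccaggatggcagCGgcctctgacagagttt
Hdac9, outermost start (chr12:34917096-34917345, minus strand): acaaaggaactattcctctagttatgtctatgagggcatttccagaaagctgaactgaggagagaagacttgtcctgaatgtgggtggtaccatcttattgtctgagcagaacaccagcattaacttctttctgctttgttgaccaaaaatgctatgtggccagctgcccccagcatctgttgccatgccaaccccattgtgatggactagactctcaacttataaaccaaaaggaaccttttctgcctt
Kat8, CpG-poor start (chr7:127912764-127913013, plus strand): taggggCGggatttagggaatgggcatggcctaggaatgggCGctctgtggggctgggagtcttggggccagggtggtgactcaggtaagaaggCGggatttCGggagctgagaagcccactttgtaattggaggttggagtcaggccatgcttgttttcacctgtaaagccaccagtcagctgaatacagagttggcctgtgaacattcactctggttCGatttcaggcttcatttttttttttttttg
The *Ncoa1* promoter held 40 CpG in these 250 bases, and H3K4me3 and H3K9ac peaks lay at its start site in 4 of 4 libraries each. The internal start sites of *Hdac4*, *Hdac7* and *Kat6b* held 23, 21 and 27 CpG and had both marks in 4 of 4 libraries. The outermost start of *Hdac7* held 6 CpG and had an H3K4me3 peak in 0 of 4 libraries and an H3K9ac peak in 1. The outermost start of *Hdac9* held 0 CpG and had neither mark in any of the 4 libraries of each. The *Kat8* site went the other way, with 5 CpG and both marks in 4 of 4 libraries. It lies inside the window of the first annotated *Kat8* start, so the same peaks count for both starts.

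RefSeq promoter sequences were matched for 26 of the 32 genes, giving 37 start sites. *Hdac1*, *Hdac10*, *Kat6a*, *Ncoa2* and *Ncoa3* had no entry among the sequences used. *Hdac3* lies on chromosome 18, whose promoters were left out of the matching. Over 300 bases, from 250 before to 50 after the start, the 24 sites with H3K4me3 in all 4 libraries had a median of 29.5 CpG (range 5 to 49). The 5 sites with H3K4me3 in no library had a median of 5.0 CpG (range 0 to 23). The comparison set was 32851 RefSeq promoters of all genes outside chromosome 18. Its medians were 23.0 for 10603 sites with H3K4me3 in all 4 libraries and 3.0 for 19441 sites with none. The exception among the unmarked sites was the testis-specific *Brdt*, whose promoter held 23 CpG. The E-box CACGTG was found in 5 of the 37 promoters (13.5%, against 7.15% of all) and the ETS-type motif CCGGAAG, on either strand, in 8 (21.6%, against 8.86% of all). At sites with H3K4me3 in all 4 libraries, these shares were 8.33% against 10.8% for the E-box and 29.2% against 21.1% for the ETS-type motif. These matches describe letters in the window and are not evidence of binding.

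**Figure D1:**
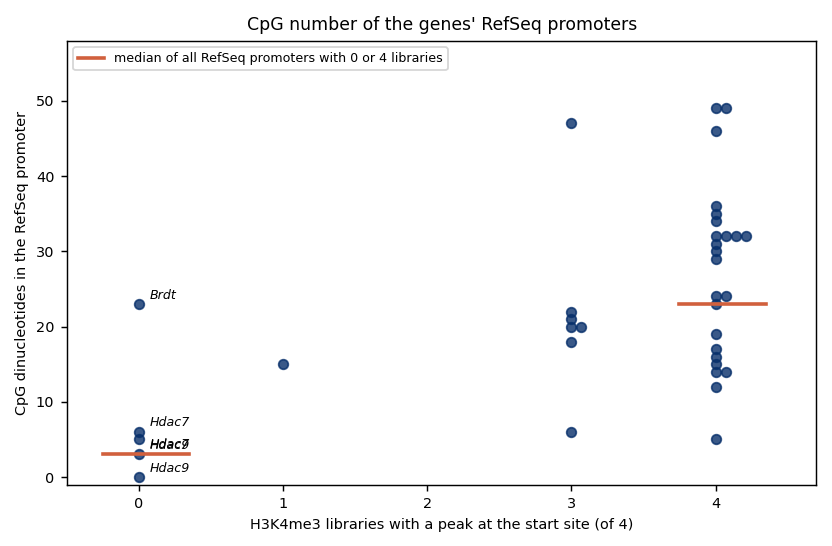
CpG dinucleotides (y axis) in each of the 37 RefSeq promoter sequences of 300 bases, by the number of H3K4me3 libraries, of 4, with a peak at the start site (x axis; points with equal values are set side by side). Each point is 1 start site. Orange bars are the medians of all RefSeq promoters outside chromosome 18 with 0 or 4 libraries, 3.0 and 23.0. Of the 5 unmarked sites, 4 hold 6 CpG or fewer, and *Brdt* holds 23.

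Most of these genes carried the marks of active promoters in both genotypes. H3K4me3 was called at 26 of 32 genes in WT and 29 in KO, against 48.4% and 50.0% of all protein-coding genes. H3K9ac was called at 30 of 32 genes in each genotype, against 51.7% in WT and 50.1% in KO of all genes. H3K27ac was found at 27 genes in WT and 29 in KO, against 44.3% and 49.8% of all genes. H3K4me1 was found at 13 genes in WT and 19 in KO, against 18.4% and 37.2% of all genes, from lists of 45770 and 78042 peaks. A peak in all 4 libraries of a mark was listed at 25 genes for H3K4me3 (46.7% of all genes) and at 29 for H3K9ac (49.4%), and 0 of the 32 lacked H3K4me3 (42.7%) or H3K9ac (43.5%) in every library. These genes had a median of 8.0 annotated start sites, against 3.0 for all genes, which gives them more windows in which a peak can fall. With the outermost start site alone, H3K4me3 was called at 20 and 24 of 32 genes, against 43.8% and 45.6% of all genes, and H3K9ac at 26 and 25, against 47.7% and 46.3%. For H3K27ac the counts were then 22 and 26, against 40.6% and 46.0%, and for H3K4me1 8 and 13, against 11.0% and 27.2%.

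H3K4me3, H3K9ac and H3K27ac together were found at 25 of 32 promoters in WT, against 41.4% of all genes, and at 26 in KO, against 45.6%. The promoters of 24 of 32 genes (75.0%) held the 3 marks in both genotypes, as did those of 40.6% of all genes. Promoters with H3K4me3 and H3K9ac but no H3K27ac numbered 0 of 32 in WT, against 5.44% of all genes, and 1 in KO, against 1.84%. That gene was *Hdac11*, the single class IV deacetylase. H3K4me3 with H3K27ac alone was found at 0 promoters in WT (0.0729% of all genes) and at 1 in KO, that of *Hdac6* (0.456%). H3K4me3 with neither acetylation mark was found at 1 promoter in WT (1.46% of all genes) and 1 in KO (2.13%), in both cases that of *Hdac9*. No H3K4me3 was called at 6 genes in WT (51.6% of all genes) and 3 in KO (50.0%). *Sirt4* and *Brdt* had no H3K4me3 call in either genotype.

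**Figure D2:**
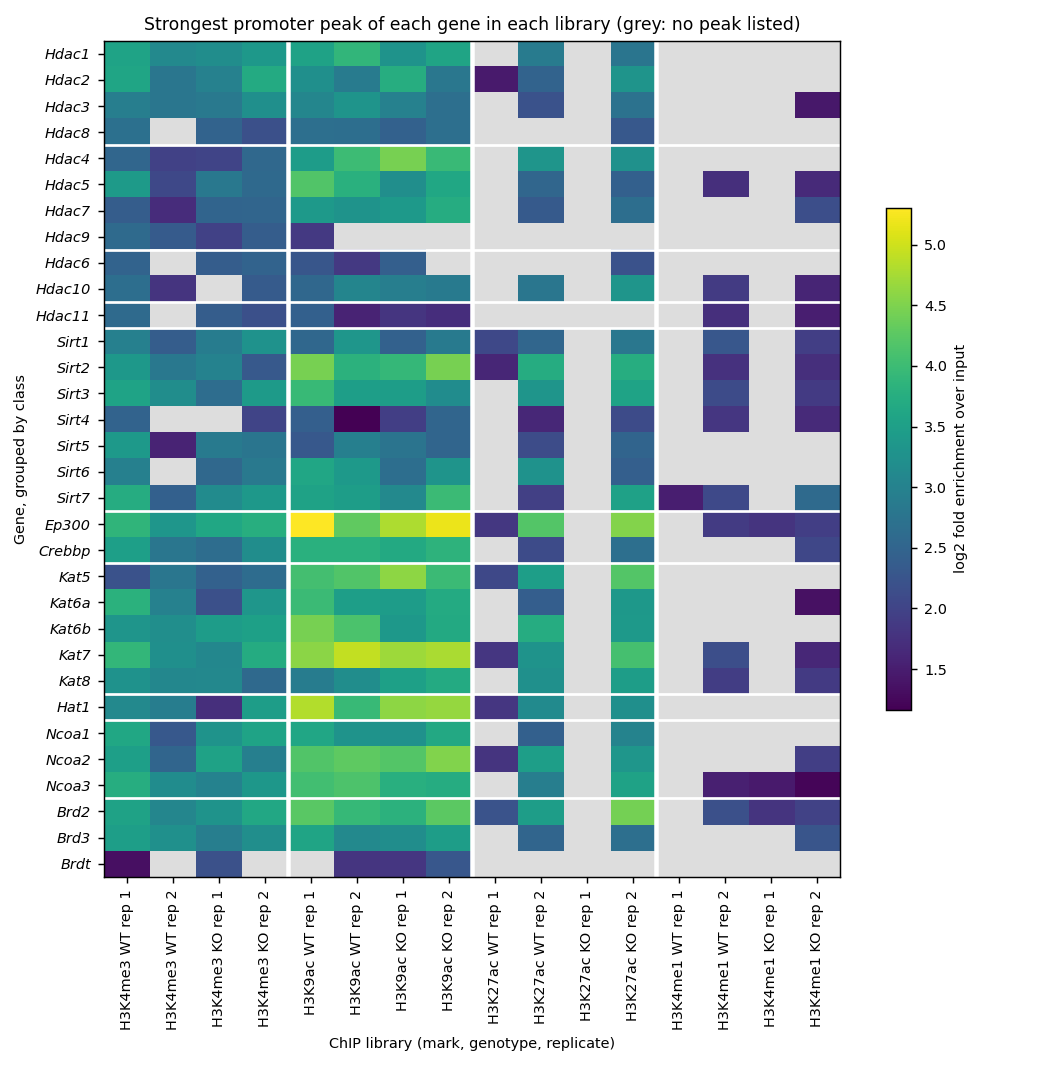
Heatmap of the log2 fold enrichment over input (colour scale) of the strongest promoter peak of each of the 32 genes (rows, grouped by class) in each of the 16 ChIP libraries (columns, by mark, genotype and replicate). Grey cells have no listed peak; H3K4me3, H3K9ac and H3K27ac replicate 2 are filled for most genes, *Hdac9* is grey in 3 of 4 H3K9ac libraries, and H3K27ac replicate 1 of KO is grey throughout.

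The class I deacetylases *Hdac1*, *Hdac2*, *Hdac3* and *Hdac8* are nuclear enzymes, and the first 3 act in the Sin3, NuRD and NCoR corepressor complexes. They ranked higher for H3K4me3 than for H3K9ac, with a median percentile of 70.5 against 37.4 over the libraries used. The order was the same in every other class except class IIa and the type B acetyltransferase *Hat1*. It was 67.45 against 42.25 for the sirtuins and 79.2 against 47.1 for the BET genes. *Hdac1* had a fold enrichment of H3K4me3 of 11.8 and 8.67 in WT and of 9.16 and 10.3 in KO, and of H3K9ac of 11.7 and 14.9 in WT and 9.75 and 12.0 in KO. *Hdac2* had H3K9ac of 9.34 and 7.42 in WT and 13.4 and 7.02 in KO. A window of *Hdac3* overlaps the promoter window of the neighbour *Rell2*. H3K9ac at *Hdac3* was 8.36 and 9.85 in WT and 7.90 and 6.41 in KO. The WT and KO ranges overlapped for *Hdac1* and *Hdac2*, and both WT values lay above both KO values for *Hdac3*.

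*Hdac8*, an X-linked enzyme that deacetylates cohesin, had H3K9ac values of 6.39 and 6.30 in WT and 5.49 and 6.42 in KO. Its H3K4me3 peak was listed at 6.45 in WT replicate 1, at 5.56 and 4.53 in KO, and not in WT replicate 2. H3K27ac at *Hdac8* was listed in KO (4.93) and not in WT. The gene lacked H3K4me3 in the shortest H3K4me3 list, of 15685 peaks, and had it in the other 3.

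The class IIa deacetylases *Hdac4*, *Hdac5*, *Hdac7* and *Hdac9* shuttle between nucleus and cytoplasm and repress MEF2 targets. As a class they showed the opposite ranking, with a median percentile of 23.4 for H3K4me3 and 55.2 for H3K9ac. The H3K9ac median leaves out the libraries in which *Hdac9* had no peak. *Hdac9* itself went the other way, with 24.2 for H3K4me3 and 8.80 for H3K9ac in 1 library. *Hdac4* had H3K4me3 of 5.80 and 3.92 in WT and 4.06 and 5.90 in KO, and H3K9ac of 11.0 and 15.9 in WT and 21.9 and 15.6 in KO. In percentiles, that is a mean of 20.7 for H3K4me3 and 72.2 for H3K9ac. *Hdac5* had H3K9ac of 18.1 and 13.8 in WT and 9.26 and 12.4 in KO, and *Hdac7* of 10.6 and 9.75 in WT and 10.4 and 13.2 in KO.

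*Hdac9* departed from the other class IIa genes. Its H3K4me3 peak was listed in all 4 libraries, with 6.02 and 5.13 in the WT preparations and 3.93 and 5.23 in the KO preparations. H3K9ac was listed in WT replicate 1 alone, at 3.62, which is percentile 8.80 of that library. No promoter peak of H3K27ac or H3K4me1 was listed in any of the 8 libraries of these marks.

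The class IIb genes are *Hdac6*, a cytoplasmic tubulin deacetylase, and *Hdac10*, a polyamine deacetylase. *Hdac6* had H3K9ac of 4.83 and 3.62 in WT and 5.34 in KO replicate 1, with no peak in KO replicate 2, so that H3K9ac was called in WT and not in KO. Its H3K4me3 was listed in WT replicate 1 (5.61) and both KO replicates (5.24 and 5.57), and H3K27ac in KO (4.64) and not in WT. *Hdac10* had H3K9ac of 5.84 and 8.28 in WT and 7.68 and 7.32 in KO. Its H3K4me3 peak was listed at 6.31 and 3.47 in WT and at 5.13 in KO replicate 2, but not in KO replicate 1. *Hdac11* had H3K9ac of 5.42 and 2.98 in WT and 3.50 and 3.25 in KO, and no H3K27ac peak in any library. Its mean H3K9ac percentile, 7.82 over 4 libraries, was the lowest of the 32 genes. *Hdac9* (8.80) had an H3K9ac peak in only 1 library and *Brdt* (8.08) in 3, and libraries without a peak do not enter the mean.

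The sirtuins are deacylases that depend on NAD; *Sirt1*, *Sirt6* and *Sirt7* are mostly nuclear, *Sirt2* mostly cytoplasmic, and *Sirt3*, *Sirt4* and *Sirt5* mitochondrial. All 7 had H3K9ac in both replicates of both genotypes and H3K27ac in replicate 2 of both. *Sirt2* ranked highest among them for H3K9ac, with 22.0 and 14.2 in WT and 15.2 and 21.8 in KO. A window of *Sirt2* overlaps the promoter window of *Nfkbib*. *Sirt4* ranked lowest, with H3K9ac of 5.34 and 2.24 in WT and 3.84 and 5.68 in KO and H3K4me3 of 5.59 in WT replicate 1 and 4.03 in KO replicate 2. *Sirt6* had H3K9ac of 12.2 and 10.4 in WT and 6.31 and 9.92 in KO, and H3K4me3 of 7.78 in WT replicate 1, none in WT replicate 2, and 5.89 and 7.15 in KO. *Sirt1*, *Sirt3*, *Sirt6* and *Sirt7* also have a window that overlaps the promoter window of a neighbour (*Dnajc12*, *Psmd13*, *Ankrd24* and *Pcyt2*). Peaks in such an overlap cannot be assigned to 1 gene. The overlap with *Pcyt2* was not located among the 4 windows of *Sirt7*. The H3K4me3, H3K9ac and H3K27ac peaks of *Sirt7* all lay in its first window.

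The acetyltransferases ranked highest in H3K9ac. *Ep300*, which encodes p300, had H3K9ac of 39.5 and 19.5 in WT and 27.9 and 36.1 in KO, and H3K4me3 of 14.6 and 10.1 in WT and 12.4 and 13.6 in KO. Its mean percentile was 95.7 for H3K9ac and 96.8 for H3K4me3, the highest of the 32 genes for H3K4me3. H3K27ac at *Ep300* was 18.2 in WT and 23.2 in KO, above 99.8% and 99.6% of the genes with a peak. *Crebbp*, which encodes the paralog CBP, had H3K9ac of 13.9 and 13.9 in WT and 12.8 and 14.4 in KO, and H3K27ac of 4.31 in WT and 6.38 in KO.

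Among the MYST acetyltransferases, *Kat7* (HBO1, an H3K14 acetyltransferase) had the highest mean H3K9ac percentile of the 32 genes, 96.2, with 23.9 and 30.2 in WT and 25.8 and 27.3 in KO. *Kat5* (TIP60, the enzyme of the NuA4 complex) had H3K9ac of 16.7 and 18.1 in WT and 24.1 and 15.9 in KO but H3K4me3 of only 4.64 and 6.95 in WT and 5.45 and 6.17 in KO. Its mean percentiles were 81.4 and 38.1. *Kat6a* (MOZ), a gene that is itself rearranged in some acute myeloid leukemias, had H3K4me3 of 14.0 and 7.90 in WT and 4.53 and 10.1 in KO. *Kat6b* (MORF) had H3K9ac of 21.9 and 17.5 in WT and 10.4 and 12.8 in KO, and *Kat8* (MOF, the H4K16 acetyltransferase) had 7.48 and 9.15 in WT and 11.5 and 12.9 in KO. The genotypes did not overlap for either gene, with WT above KO for *Kat6b* and KO above WT for *Kat8*.

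*Hat1*, the type B enzyme that acetylates newly made histone H4, had H3K9ac of 28.4 and 15.6 in WT and 24.3 and 25.2 in KO. The nuclear receptor coactivators *Ncoa1*, *Ncoa2* and *Ncoa3*, which bind p300 and CBP, had a median H3K9ac percentile of 74.7. *Ncoa2* had the highest H3K9ac of the 3, with 18.1 and 19.3 in WT and 18.4 and 22.8 in KO.

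The BET genes differed from each other. *Brd2* had H3K9ac of 18.9 and 15.3 in WT and 14.2 and 19.1 in KO, and its H3K27ac was 11.1 in WT and 21.7 in KO. The *Brd2* H3K9ac peak was the widest of the 32 genes in each of the 4 libraries, with 4782 and 4672 bp in WT and 4298 and 4053 bp in KO, where the median width over all genes was 1080 to 1302 bp. The *Brd2* windows also overlap a promoter window of *H2-DMa*. *Brd3* had H3K9ac of 12.0 and 8.66 in WT and 9.12 and 11.0 in KO. *Brdt*, which is known from testis, had H3K9ac of 3.49 in WT replicate 2 and of 3.53 and 4.88 in KO, and H3K4me3 of 2.53 in WT replicate 1 and 4.57 in KO replicate 1. Its mean H3K4me3 percentile over the 2 libraries with a peak, 12.1, was the lowest of the 32 genes. By mean percentile in the replicate 2 libraries, *Ep300* was highest for H3K27ac (99.7), followed by *Brd2* (95.2). *Sirt4* was lowest (7.94) among the genes with a peak. *Hdac9*, *Hdac11* and *Brdt* had no H3K27ac peak there and were not ranked. With replicate 1 included, *Brd2* came first (94.8) and *Ep300* had 87.9. For H3K4me1 in replicate 2, *Sirt7* was highest (88.5). *Brd3* (85.6) and the lowest of the genes with a peak, *Kat6a* (3.32), had a peak in KO alone. Genes without an H3K4me1 peak in replicate 2 of either genotype were not ranked. With replicate 1 included, *Sirt7* had 61.8 and *Brd3* came first.

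Several of the genes carried their promoter marks away from the outermost start site. The 32 genes have 113 separate start-site windows, of which 27 had H3K4me3 in all 4 libraries and 75 in none. H3K9ac was found in all 4 libraries at 33 windows, and 0 of these lacked H3K4me3 in every library. Of the first windows, 19 of 32 had H3K4me3 in all 4 libraries, and of the later ones 8 of 81. Shares over all genes are not given for these window counts, so they do not set the 32 genes apart from others. The 32 genes have a median of 8.0 annotated start sites, against 3.0 for all genes. In *Hdac4*, *Hdac5*, *Hdac7*, *Hdac9*, *Kat6b* and *Brd3* the second window was the single one with H3K4me3 in all 4 libraries. The first window of *Hdac5* had it in 3 of 4 libraries, and the first windows of the other 5 genes in none. All 4 class IIa genes are in this group, but *Hdac5* only because its first window lacked an H3K4me3 peak in WT replicate 2. In every H3K4me3 library that listed a peak there, it was stronger than the peak at the second window. H3K9ac at the first window of *Hdac5* was 18.1 and 13.8 in WT and 9.26 and 12.4 in KO. At its second window H3K9ac was 7.46 and 12.4 in WT and 5.75 and 7.34 in KO. Of the class IIa genes, *Hdac4*, *Hdac7* and *Hdac9* thus had H3K4me3 away from the outermost start alone. In *Brdt*, every listed peak lay at the second window, inside the gene, and none at the outermost start. *Ncoa2* and *Brd2* had 2 windows each with H3K4me3 in all 4 libraries. The 2 windows lie close together in each gene, so a single peak can count for both. In WT replicate 1, H3K4me3 of *Ncoa2* had the same value, 11.4, at both windows. The H3K4me3 values of *Brd2* differed between its windows in every library.

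**Figure D3:**
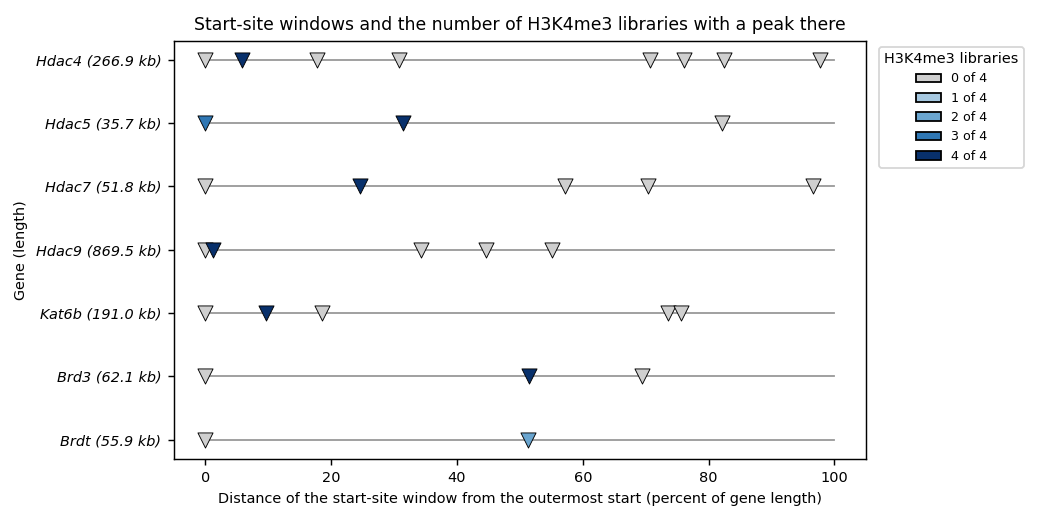
Position of each start-site window (triangles) along 7 genes, as the distance from the outermost start in percent of gene length (x axis), coloured by the number of H3K4me3 libraries, of 4, with a peak there. In 6 of the genes the second window is the one with 4 of 4 libraries, and in *Brdt* the second window has 2 of 4.

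The question the genotypes pose is whether loss of *Kat2a* left a trace at the promoters of the other acetylation genes. No gene of the 32 had H3K9ac or H3K4me3 in both replicates of one genotype and in neither of the other. Among all genes, H3K9ac was found in both WT replicates and neither KO replicate at 0.647% and in the reverse direction at 0.173%, and for H3K4me3 the shares were 0.346% and 0.228%. Calls that differed between genotypes came from a peak missing in 1 library. These were H3K9ac of *Hdac6* (called in WT alone) and *Brdt* (called in KO alone), and H3K4me3 of *Hdac10* (WT alone) and of *Hdac8*, *Hdac6*, *Hdac11* and *Sirt6* (KO alone).

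Fold enrichment was compared for genes with a promoter peak in all 4 libraries of a mark, on the log2 scale after quantile normalization. The moderated test of limma was used, with Benjamini-Hochberg adjustment over all such genes. Each value is the strongest peak over all windows of a gene, so libraries can differ in the start site compared. For H3K4me3 of *Hdac5*, the value came from the second window in WT replicate 2 (4.16) and from the first window otherwise. For H3K9ac, 0 of 10837 genes passed an adjusted p of 0.05 in either direction (0.00%), and 0 of the 29 genes of this group that were tested. At an unadjusted p under 0.05 there were 419 genes, none of them in the group. For H3K4me3, 0 of 10247 genes passed (0.00%), with 564 at an unadjusted p under 0.05, and 0 of 25 in the group by either measure. *Hdac6*, *Hdac9* and *Brdt* were not tested for H3K9ac, and *Hdac8*, *Hdac6*, *Hdac10*, *Hdac11*, *Sirt4*, *Sirt6* and *Brdt* not for H3K4me3. With 2 libraries per genotype, an exact permutation test of a single gene could not go below p = 0.33.

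The H3K9ac differences (KO minus WT, log2) had a median of 0.07 over the 29 genes, against a median near 0 over all genes, where 90% of the values ran from -0.59 to 0.59. They were above 0 for 19 genes and below 0 for 10, but this split turned with the scaling and with single libraries. Without normalization 14 were above 0 and 15 below, with a median of -0.02 against -0.08 over all genes. Without WT replicate 2 the split was 12 to 17 (median -0.07), and without KO replicate 1 it was 13 to 16 (median -0.02). The largest were -0.69 for *Kat6b* (SE 0.37, 95% interval -1.43 to 0.05), 0.63 for *Kat8* (SE 0.37, interval -0.10 to 1.37) and 0.53 for *Hdac4* (SE 0.38, interval -0.24 to 1.29). The adjusted p in limma was 0.999 for each. The *Hdac4* difference was 0.25 without WT replicate 1, 0.82 without WT replicate 2, 0.17 without KO replicate 1 and 0.88 without KO replicate 2. For *Ep300* the difference was 0.22 (interval -0.55 to 1.00) and for *Kat7* 0.01 (interval -0.73 to 0.75), so that neither gene is shown to be equal between genotypes. Both WT values lay above both KO values before normalization in 6 of 29 genes (*Hdac3*, *Hdac5*, *Sirt3*, *Sirt6*, *Kat6b* and *Ncoa3*), or 20.7%, against 19.2% of all genes tested. Both KO values lay above both WT values in *Kat8* alone, or 3.45%, against 10.4%.

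The H3K4me3 differences had a median of 0.09 over 25 genes, with 14 above 0 and 11 below. The median was -0.04 without WT replicate 1 and also without WT replicate 2, with 12 above 0 and 13 below in both, and -0.02 with the outermost start alone. The largest were -0.61 for *Kat6a* (SE 0.37, interval -1.37 to 0.15), 0.59 for *Hdac7* (SE 0.36, interval -0.14 to 1.32) and 0.50 for *Ncoa1* (SE 0.37, interval -0.25 to 1.25). Their adjusted p-values in limma were 0.905, 0.905 and 0.915. The *Kat6a* difference was -0.19 without KO replicate 1 and -1.02 without KO replicate 2, and that of *Ncoa1* was 0.88 without WT replicate 1 and 0.13 without WT replicate 2. Both WT values lay above both KO values in *Brd3* (4.00% of 25, against 14.0% of all genes tested) and below them in *Hdac7* and *Kat6b* (2 of 25, against 8.92%). The WT and KO values of *Kat6a*, given above, overlapped.

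**Figure D4:**
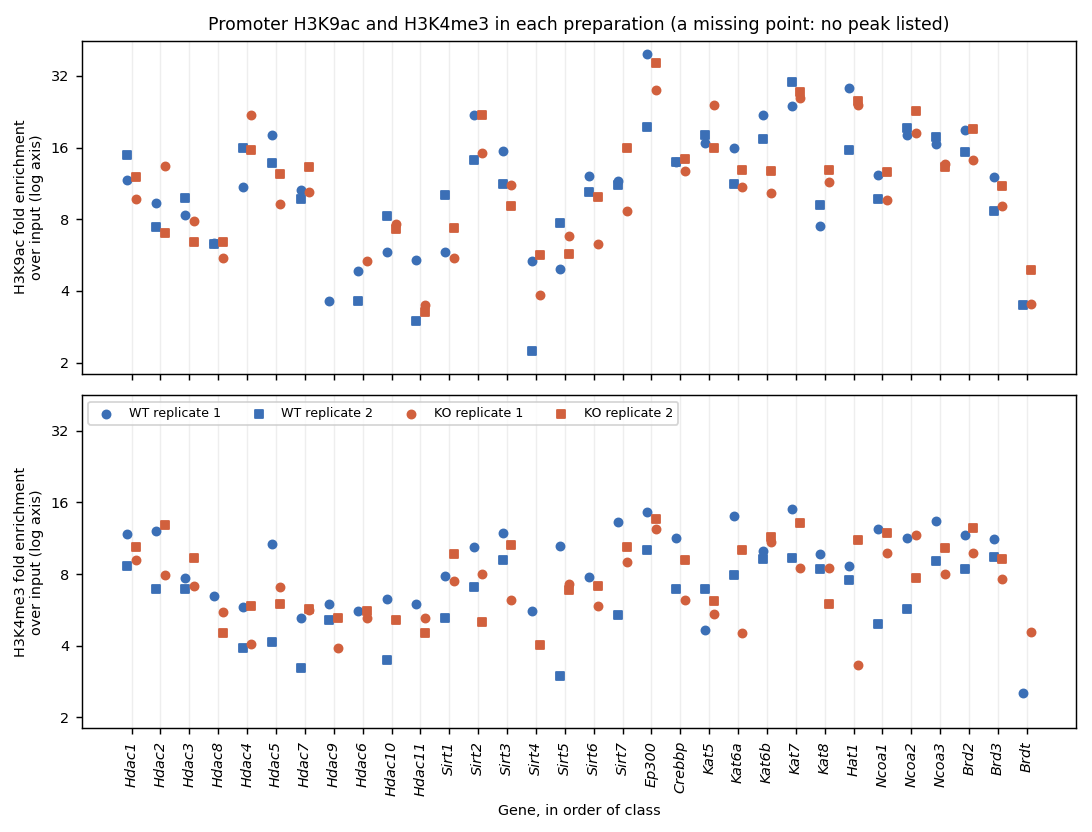
Fold enrichment over input (log axis) of the strongest promoter peak of H3K9ac (upper panel) and H3K4me3 (lower panel) for each of the 32 genes (x axis, in order of class), 1 point per library, blue for WT and orange for KO. *Ep300*, *Kat7* and *Hat1* hold the highest H3K9ac values, and WT and KO points overlap for most genes, with *Kat6b* and *Kat8* among those that do not.

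For H3K27ac and H3K4me1, 1 library per genotype was used and no test was possible. H3K27ac was listed in KO and not in WT at *Hdac8* and *Hdac6* (6.25% of 32, against 5.85% of all genes) and in WT and not in KO at 0 genes (0.00%, against 0.433%). Of the 27 genes with a peak in both, the fold enrichment was higher in KO in 21 (77.8%), against 82.1% of all genes. H3K4me1 was listed in KO alone at *Hdac3*, *Hdac7*, *Crebbp*, *Kat6a*, *Ncoa2* and *Brd3* (18.8%, against 22.9% of all genes) and in WT alone at none of the 32 (4.00% of all genes). Of the 13 genes with H3K4me1 in both, the fold enrichment was higher in KO in 2, *Sirt7* and *Ep300* (15.4%), against 57.3% of all genes. The values were 4.23 in WT and 6.04 in KO for *Sirt7*, and 3.69 and 3.82 for *Ep300*. The KO lists hold more peaks than the WT lists for both marks (46047 against 29757 for H3K27ac), and the part of list length in these counts was not tested.

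Peaks within the gene bodies, outside every promoter window, differed widely in number between the genes. H3K9ac had such a peak in both replicates at 12 genes in WT and 10 in KO, against 16.0% and 13.1% of all genes. The 32 genes are longer than most, with a median of 35.9 kb against 17.4 kb. Per length, H3K9ac covered 1.22% and 1.30% of the gene bodies in WT and 0.945% and 1.02% in KO, where all gene bodies had 1.08% and 1.19% in WT and 0.756% and 0.954% in KO. H3K4me3 had a gene body peak in both replicates at 2 genes in WT (*Hdac4* and *Hdac7*) and at 6 in KO (also *Hdac9*, *Ep300*, *Ncoa2* and *Ncoa3*), against 5.51% and 6.67% of all genes.

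Covered length was summed over the gene bodies, including the parts of promoter peaks that reach beyond a window. H3K27ac covered 23.5 kb of the gene bodies in WT replicate 2 and 55.2 kb in KO replicate 2, or 0.840% and 1.98% of their length, against 0.751% and 1.58% over all genes. H3K4me1 covered 28.8 kb and 104.4 kb, or 1.03% and 3.74%, against 0.669% and 2.46%. The KO to WT contrast in covered length was thus present over all genes too, in 1 library each. Gene bodies with a peak numbered 10 and 14 of 32 for H3K27ac, against 15.4% and 23.9% of all genes, and 18 and 21 for H3K4me1, against 31.9% and 41.8%.

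*Hdac4* (chr1:91928779-92195699) held the most of both. It had 12 gene body H3K27ac peaks in WT and 17 in KO, over 7.56 kb and 18.0 kb, and 21 and 38 H3K4me1 peaks, over 5.66 kb and 26.1 kb. H3K9ac peaks in its body numbered 12 and 9 in WT and 14 and 7 in KO. *Hdac7* (chr15:97792664-97844502) had 9 and 7 H3K27ac peaks, over 6.05 kb and 8.31 kb, and 16 H3K4me1 peaks in each genotype, over 4.97 kb and 11.7 kb. *Brd3* (chr2:27445579-27507662) had 4 and 7 H3K27ac peaks, over 2.41 kb and 4.03 kb, and 16 and 17 H3K4me1 peaks, over 4.75 kb and 11.9 kb. Together these 3 genes held 68.2% of the H3K27ac length and 53.4% of the H3K4me1 length of the group in WT. In KO the 3 genes with most H3K27ac were *Hdac4*, *Hdac7* and *Ncoa2*, with 56.9%, and those with most H3K4me1 were *Hdac4*, *Hdac9* and *Brd3*, with 48.4%. The order was not that of gene length. *Brd3* has 57.6 kb outside the windows, while *Hdac8* and *Kat6b*, with 219.6 and 182.8 kb, had 0 H3K27ac gene body peaks in replicate 2 of either genotype.

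*Hdac9* (chr12:34047580-34917095) was the gene with the fewest acetylated promoter peaks and the longest gene of the group, at 869.5 kb. It had 0 gene body H3K27ac peaks in WT and 7 in KO, over 2.71 kb, and 14 and 25 H3K4me1 peaks, over 3.01 kb and 12.6 kb. Its H3K9ac peaks in the body numbered 6 and 3 in WT and 2 and 1 in KO. *Ncoa2* had 3 and 8 H3K27ac peaks and 14 and 22 H3K4me1 peaks. No gene body peak of H3K27ac or H3K4me1 was listed in replicate 2 of either genotype for *Hdac6*, *Hdac11*, *Sirt1*, *Sirt4*, *Sirt5*, *Brd2* and *Brdt*. These genes are not alike in the length searched. Outside the windows *Brd2* has only 1.63 kb and *Sirt4* 2.85 kb, against 57.7 kb for *Sirt1* and 53.9 kb for *Brdt*.

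**Figure D5:**
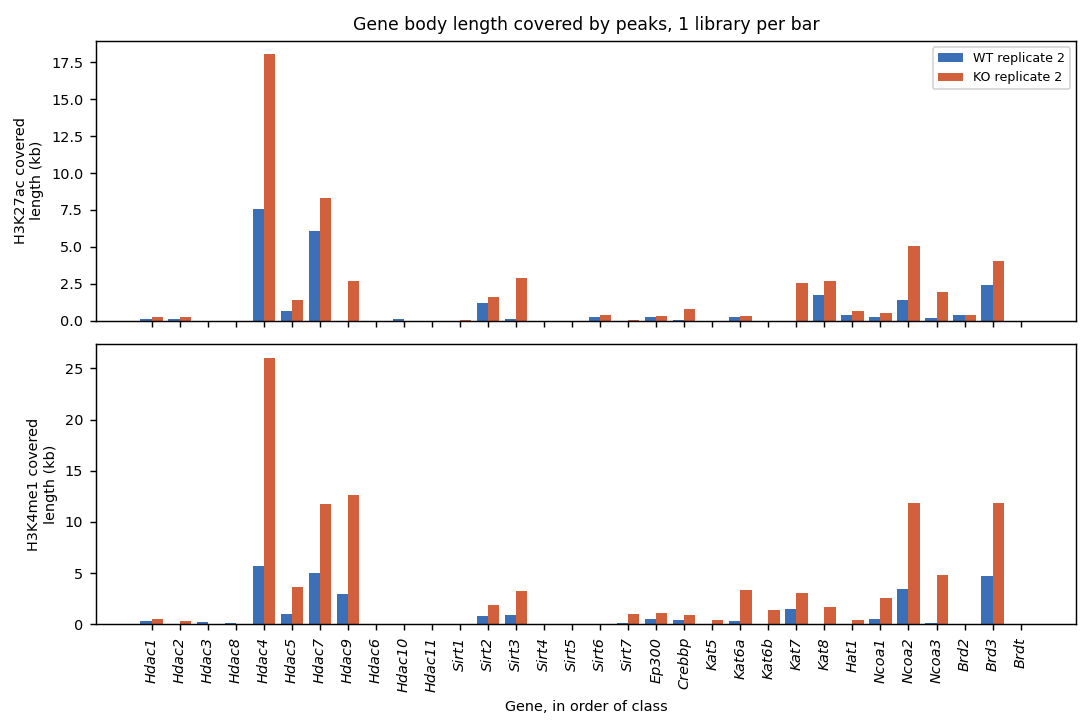
Length of each gene body, outside promoter windows, covered by H3K27ac peaks (upper panel, kb) and H3K4me1 peaks (lower panel, kb) in replicate 2, 1 bar per library, blue for WT and orange for KO, genes in order of class. *Hdac4* has the tallest bars, at 7.56 and 18.0 kb of H3K27ac and 5.66 and 26.1 kb of H3K4me1.

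Subunits that work with these enzymes also carried H3K9ac, H3K4me3 and H3K27ac at nearly every promoter. The 54 genes belong to the Sin3, NuRD, NCoR, CoREST, NuA4, MOZ, MORF, HBO1, MSL and NSL complexes. H3K9ac was called at 54 in WT and 54 in KO, against 51.7% and 50.1% of all genes. H3K4me3 was called at 51 and 54, against 48.4% and 50.0% of all genes. H3K27ac was found at 52 and 54, against 44.3% and 49.8%. H3K4me1 was found at 15 (27.8%) and 28 (51.9%), against 18.4% and 37.2% of all genes. The 32 genes had H3K4me1 at 40.6% and 59.4%, and the difference from the subunits was not tested. The 3 without an H3K4me3 call in WT were *Mta1* of NuRD, *Brd1* of the MOZ, MORF and HBO1 complexes and *Msl3* of MSL. *Rcor2*, of the CoREST complex, was the 1 gene with H3K4me3 and H3K9ac but no H3K27ac in WT (5.44% of all genes). In limma, 0 of 54 subunits passed for H3K9ac and 0 of 51 for H3K4me3. At an unadjusted p under 0.05 there were 2 and 1, where all genes had 419 of 10837 and 564 of 10247.

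As a check of the samples, promoter H3K9ac was called at 8 of 8 myeloid leukemia markers in WT and 6 in KO, at 0 of 3 B lymphoid and 0 of 3 T lymphoid markers in both, at 0 and 1 of 4 erythroid markers, and at 2 of 4 stromal markers in both. At *Kat2a* itself, promoter H3K9ac was 8.002 and 4.58 in WT and 7.48 and 11.8 in KO. The promoter lies outside what Cre removes, so this value does not check the excision.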

How the data were processed

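Peak lists of 16 ChIP-seq libraries (4 marks, 2 genotypes, 2 replicates) were analysed. The labels also name input libraries, which were not used here. Per the labels, the authors mapped reads to mm10 with BWA and called peaks with MACS2 (versions not given in the sources used here). In the deposited lists each summit has a fold enrichment over input, which is a ratio, and 2 columns on the −log10 scale, for the p-value and for the q-value. A further deposited column is a score that is 10 times the −log10 p. Per the study's methods the q-value threshold was 0.05, but the deposited lists also hold peaks above it. Read counts are absent from the lists, so neither depth nor a limit of detection is known. The study left out 1 H3K4me1 and 1 H3K27ac replicate without naming them. Replicate 1 of both marks was left out here in both genotypes.

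The 32 genes, the subunit and marker lists and the tests were chosen with earlier results of these data known. Positions were set against GENCODE M21 and are counted from 1. Fold enrichment of the strongest promoter peak was log2-transformed, quantile-normalized and tested with limma 3.58.1 in R 4.3.3. The fit used the 4 libraries of a mark, genotype as the term and genes with a peak in all 4. Genes were named by rule: those without H3K4me3 in every library, those whose H3K9ac or H3K4me3 call differed between genotypes, the 3 largest differences per mark, the highest and lowest mean percentile per mark, the 3 with most gene body H3K27ac and H3K4me1 in WT, and at least 1 of every class. Other genes were named after their values were seen. Alternatives were stricter q-values (0.05 and 0.01), the outermost start site, the summit in place of any overlap, equal numbers of peaks per library, other replicate rules, other normalizations and a replicate block. Python 3.11.15, numpy 2.4.6 and matplotlib 3.10.9 were used, and the interval and limma steps were checked on simulated data.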

Additional observations from a re-analysis of the deposited data

Results flagged for a closer look

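In WT replicate 1 of H3K27ac, a list that entered none of the counts above, 9 of the 32 genes had a promoter peak (28.1%, against 12.7% of all genes). They were *Hdac2*, *Sirt1*, *Sirt2*, *Ep300*, *Kat5*, *Kat7*, *Hat1*, *Ncoa2* and *Brd2*, with fold enrichments from 2.77 to 4.69 and a median peak width of 88.0 bp. In replicate 2 all 9 had an H3K27ac promoter peak in both genotypes. This was singled out because the signal lies in a list left out of the comparisons. In KO replicate 1 of H3K27ac the count was 0 of 32 (0.47% of all genes), from a list of 2725 peaks against 26791 in WT. In replicate 1 of H3K4me1 the counts were 1 gene in WT (*Sirt7*; 1.85% of all genes) and 3 in KO (*Ep300*, *Ncoa3* and *Brd2*; 3.29% of all genes). With 2 libraries per group, no value could be tested for a library that stands apart.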

How the results depend on the processing

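Of 282 values recomputed under the alternatives, 243 stayed within 1.5 times the reported count or kept their direction and side of the threshold, and 39 moved. The H3K4me3 and H3K9ac promoter counts in both genotypes were among those that did not move. The limma differences of the 6 genes named kept their sign and stayed above the threshold of adjusted p in every fit that held them, but those of *Hdac4*, *Kat6a* and *Ncoa1* moved by over 1.5 times without single libraries. Leaving out 1 library at a time, the H3K9ac difference ranged from -0.86 to -0.54 for *Kat6b*, 0.50 to 0.77 for *Kat8* and 0.17 to 0.88 for *Hdac4*, and the H3K4me3 difference from -1.02 to -0.19 for *Kat6a*, 0.45 to 0.71 for *Hdac7* and 0.13 to 0.88 for *Ncoa1*. In limma, 0 genes of the group and 0 of all genes passed under each of the 11 alternatives for each mark. The labels name no batch behind the replicate numbers, and the numbers were not treated as pairs. Same-numbered libraries deviated together with a correlation of 0.129 for H3K9ac and 0.003 for H3K4me3. For H3K27ac and H3K4me1 the lists with at most 0.05% of peaks at a q-value of 0.05 were replicate 1 in both genotypes, and whether the number marks a shared batch was not tested. With the replicate block, 0 genes passed for either mark, and 558 and 602 genes had an unadjusted p under 0.05. H3K4me1 promoter calls in WT, reported as 13, were 5 with q of at most 0.05, 3 with 0.01 and 8 with the outermost start, and the KO count of 19 was 12 with equal numbers of peaks. Promoters with H3K9ac but no H3K27ac, reported as 0 in WT and 1 in KO, were 1 in WT with the outermost start, and 5 and 2 when either replicate was enough. When both replicates were required for every mark, H3K27ac was found at 9 and 0 genes, H3K4me1 at 1 and 3, both acetylation marks together at 9 and 0, and H3K9ac without H3K27ac at 16 and 27. Gene bodies with H3K4me3 in KO, reported as 6, were 3, 2 and 1 with q of at most 0.05, 0.01 and equal numbers of peaks, and the WT count of 2 was 6 by summit. The H3K4me1 length in WT was 10.7 kb with q of at most 0.05 and 4.24 kb with 0.01. The cause of these shifts was not tested. Leaving out 1 replicate number at a time changed further counts. Without replicate 2, H3K27ac rests on the replicate 1 lists and was found at 9 genes in WT and 0 in KO, and H3K4me1 at 1 and 3, with gene body lengths of 2.26 and 0.147 kb of H3K27ac and 1.17 and 2.69 kb of H3K4me1. Over the leave-out fits, promoters with both acetylation marks ranged from 9 to 25 in WT and 0 to 28 in KO, those with H3K9ac but no H3K27ac from 0 to 22 in WT and 1 to 29 in KO, and gene bodies with H3K4me3 in WT from 2 to 10. Genes with a promoter peak in 1 genotype alone, reported as 0, were 1 for H3K9ac in WT alone under each, 0 to 1 in KO alone, and for H3K4me3 0 to 2 in WT alone and 0 to 5 in KO alone.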
